A study of Homo sapiens with 4 samples.

Results

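The genes described here are 5 members of the aryl hydrocarbon receptor pathway: AHR, the receptor itself, AHRR and TIPARP, both feedback repressors of it, and CYP1A1 and CYP1B1, enzymes that it induces. N6-methyladenosine (m6A), a methyl mark on adenosines of messenger RNA, was mapped by MeRIP-seq, in which an m6A antibody pulls marked fragments out of poly(A) RNA (the IP library) and RNA without this step is sequenced for comparison (the input library). Members were all deposited m6A-enriched intervals that lay on the gene's strand within a fixed window around each of the 5 genes in hg19. The windows held 10 of the 11038 intervals of one condition and 4 of the 13691 intervals of the other.

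The cells were 16-HBE, an established human bronchial epithelial line. One condition, called CSE below, was labelled wild type and received cigarette smoke extract at 5% for 24 h. The other, called knockdown, received the same extract and carried siRNA against METTL3, the catalytic subunit of the m6A writer complex. Both conditions were thus smoke-exposed, and no unexposed cells were analysed here. The titles name no control siRNA in the CSE condition, so METTL3 reduction and transfection cannot be told apart. There were 4 libraries, an IP and an input for each condition, but only 1 interval list per condition was analysed, so no value below has a replicate error and no test between conditions was possible. The design text speaks of 3 replicates in each condition. Whether a list pools them or stands for 1 of them is not stated. The lists carry no expression values, and reads of the input libraries were not analysed here. The levels of METTL3, of epithelial markers and of the 5 transcripts are therefore not known from the lists. Where an interval is not listed, a lower m6A level, a lower transcript level and a lower read depth cannot be told apart from the lists.

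The aryl hydrocarbon receptor is a transcription factor that rests in the cytoplasm with chaperones and enters the nucleus when it binds aromatic ligands, among them the polycyclic hydrocarbons of tobacco smoke. With its partner ARNT it binds xenobiotic response elements and induces genes of detoxification, of which CYP1A1 and CYP1B1, monooxygenases that oxidise such hydrocarbons, are the classic ones in airway epithelium. It also induces its own inhibitors: AHRR, which competes for ARNT, and TIPARP, a mono-ADP-ribosyltransferase that promotes loss of the receptor.

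All 5 genes had at least 1 interval in the CSE list, and 3 of them, AHR, AHRR and CYP1B1, also had one in the knockdown list. Of the 10 CSE intervals, 6 had no overlap of at least 1 bp on the same strand in the knockdown list, beside 19.9% of all CSE intervals. These 6 CSE-only intervals were spread over 4 genes, 2 in AHR, 2 in TIPARP, 1 in CYP1A1 and 1 in CYP1B1. In the other direction, 0 of the 4 knockdown intervals lacked an overlap in the CSE list, beside 35.5% of all knockdown intervals. With stricter rules a few members changed sides. At 50% reciprocal overlap 7 CSE and 1 knockdown interval had no counterpart, beside 20.8% and 36.2% of all, and with identical borders 8 and 2, beside 34.2% and 47.0%. Among intervals with a score of at least 100 the numbers were 6 of 7 and 1 of 2, beside 19.1% and 37.6%. In the higher-scoring 50% of either list they were 3 of 4 and 1 of 2, beside 20.1% and 35.6%. Intervals of 1 gene share a transcript and are not independent of each other. TIPARP and CYP1A1 were left without any listed interval after knockdown.

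**Figure D1:**
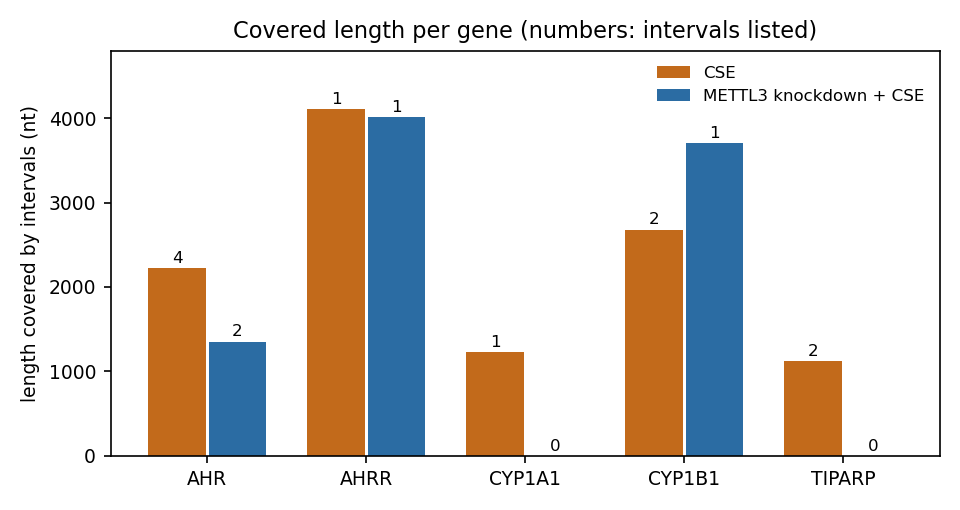
Length covered by m6A intervals in each gene window (vertical axis, nt), for the CSE list (orange) and the knockdown list (blue), 1 list each and hence no error bars; the number above a bar is the number of intervals. Coverage in CYP1A1 (1233 nt) and TIPARP (1127 nt) is 0 after knockdown, while in CYP1B1 it is 3708 nt against 2681 nt in CSE.

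The covered length did not follow the number of intervals in every gene. Intervals covered 2219 nt of AHR in CSE and 1353 nt after knockdown. In AHRR the lengths were 4111 and 4010 nt. CYP1B1 went the other way, with 2681 nt covered in CSE by 2 intervals and 3708 nt after knockdown by 1. Over the 5 genes the total was 11371 nt in CSE and 9071 nt after knockdown. No interval of either list lay on the opposite strand within the windows, since counting either strand gave the same 10 and 4.

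To see what the intervals stand for, their lengths were set against the exons of GENCODE release 29. That annotation belongs to GRCh38, so only lengths and distances were compared and no position was carried between the builds. There were 12 intervals with different borders, and 7 of them had exactly the length of 1 exon in a transcript of their own gene. None of these 7 lengths occurred among the annotated exons of the other 4 genes. Within AHR, CYP1B1 and TIPARP, all 9 distances between an upstream and a downstream interval equalled the distance between 2 exons of the transcript to the base, although these distances are not independent. By this measure the AHR intervals fell on exons 1, 2, 8 and 10 of 11, the CYP1B1 intervals on exons 2 and 3 of 3, and the TIPARP intervals on exons 2 and 3 of 6. The CYP1A1 interval was placed on exon 7 of 7 by its length alone. The AHRR intervals matched no exon length, and with 1 interval per list no distance could be taken. Where both borders are exon borders, the interval names the exon that was listed and not the place of m6A within it.

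**Figure D2:**
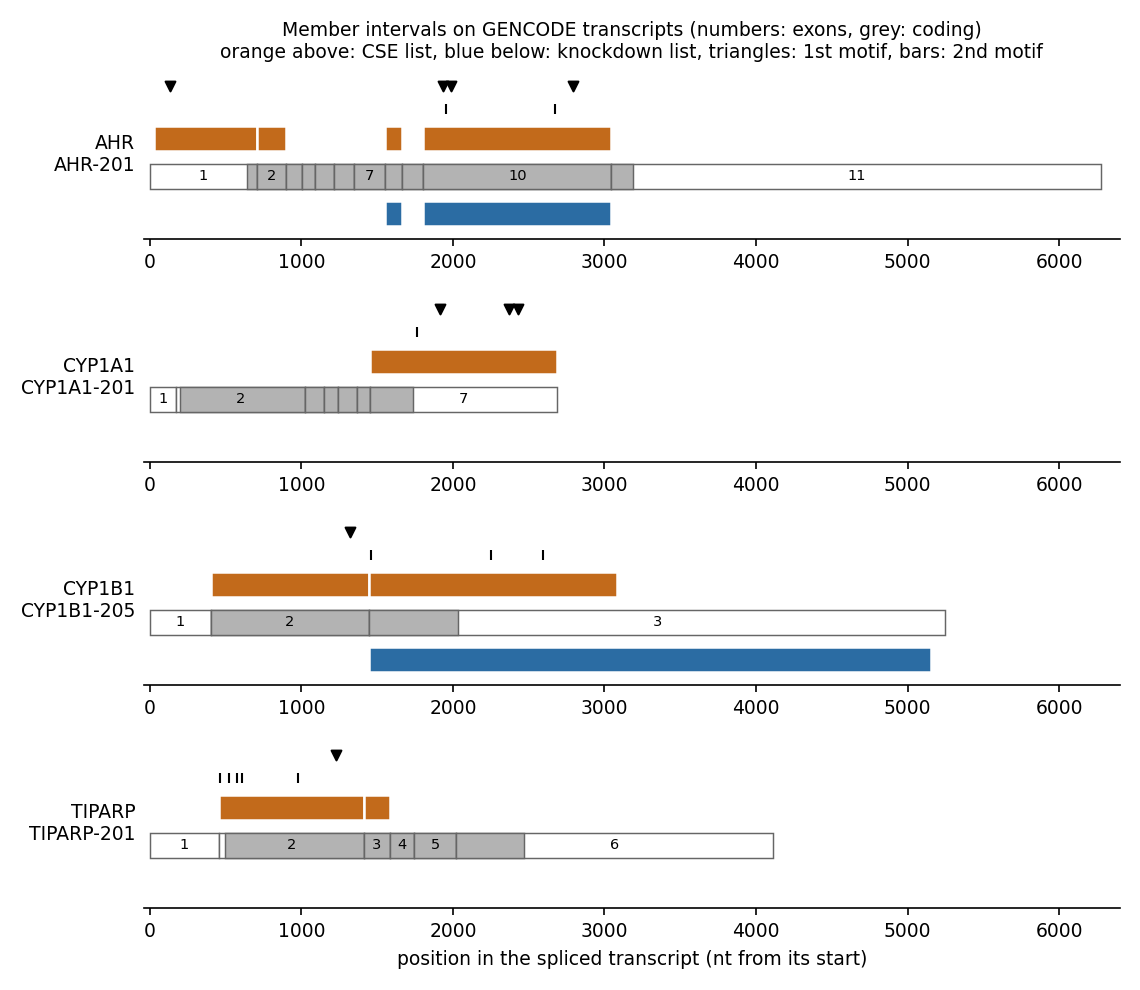
Intervals drawn on the spliced transcripts of 4 genes (horizontal axis, nt from the transcript start; boxes are exons, grey is coding sequence), with the CSE list in orange above and the knockdown list in blue below; triangles mark GGACT and short bars AGACT in the CSE intervals. In AHR exons 8 and 10 carry an interval in both lists, in CYP1B1 the interval on exon 3 is longer after knockdown, and CYP1A1 and TIPARP have no blue bar.

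AHR, the receptor, held 4 intervals in CSE and 2 after knockdown. The highest-scoring one lay at chr7:17378610-17379852 on the plus strand and was listed in both conditions with identical borders. Its 1243 nt equal exon 10, which is coding throughout and lies just before the last exon. Each interval carries a score given by the authors, on a scale that is not stated, and it serves here only to place an interval within its own list. Exon 10 scored 1308.0 in CSE, above 86.4% of that list, and 2913.89 after knockdown, above 90.9% of that list. It was thus among the stronger intervals of either list.

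Exon 10 of AHR held 3 copies of GGACT, a common form of the motif in which METTL3 methylates the A, read on the transcript strand only. At least 1 copy was found in 70.9% of 1745 exons of similar length (within 10%), and at least 3 in 14.8%. The copies are printed with 10 nt on either side, as this exon had the highest score of those listed in both conditions. Capitals mark the motif, and the numbers count from the first base of the exon.
AHR exon 10, position 129: ttaccactaaGGACTaaaaatggca
AHR exon 10, position 184: ctctaagcaaGGACTctctcaatcc
AHR exon 10, position 991: gtacagagctGGACTaccctatggg
The exon also held 2 copies of AGACT, a related form, and at least 2 were found in 35.3% of exons of similar length. A match shows only that the letters are there.

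The other shared AHR interval, chr7:17374511-17374620, was short and scored low in both lists. It measured 110 nt, the length of exon 8, and scored 56.77 in CSE and 81.66 after knockdown, above 5.03% and 15.0% of the respective lists. Neither GGACT nor AGACT occurred in it. GGACT was present in 10.6% of exons of that length.

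The 2 AHR intervals without a counterpart after knockdown lay at the 5′ end of the transcript. The first, chr7:17338276-17338953, measured 678 nt and ended at the 3′ border of exon 1, as its distance of 10606 nt to the next interval equals intron 1. It spanned 613 nt of 5′ UTR and the first 65 coding nt. Its score was 137.56, above 35.2% of the CSE list. The second, chr7:17349560-17349747, had the 188 nt of the coding exon 2 and scored 106.2, above 26.7% of the list. Both thus lay in the lower part of the CSE list. For an interval in the same score class (10 classes of equal size), the share of CSE-only intervals was 23.2% (Wilson 95% interval 20.8 to 25.8) in class 4 and 28.1% (25.5 to 30.8) in class 3. The nearest knockdown interval on this strand was exon 8 of AHR itself, 35557 and 24763 nt away. The last exon of AHR, which with 3230 nt is its longest and holds the stop codon, was in neither list.

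AHRR, the repressor that competes with the receptor for ARNT, held 1 interval in each list. Both began at the same base on chromosome 5. The CSE interval, chr5:433968-438078, measured 4111 nt, and the knockdown interval, chr5:433968-437977, ended 101 nt earlier and measured 4010 nt. They were among the widest of their lists, wider than 98.6% of the intervals in each. In the AHRR transcript used here, the only exon long enough to hold them is the last, at 4439 nt, of which 979 nt are coding. In CSE the score was 58.31, above 6.02% of the list, and after knockdown it was 590.01, above 68.1% of the list. Of the 5 genes, AHRR was the one with the same number of intervals in both conditions.

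TIPARP, the ADP-ribosyltransferase that restrains the receptor, had the most prominent interval that was not listed after knockdown. It lay at chr3:156395446-156396403 on the plus strand, measured 958 nt like exon 2, and scored 3100.0, a value at which scores pile up near the top of the scale. This was above 94.0% of the list, as 40 of the 11038 CSE intervals scored higher and many had the same score. Among CSE intervals with a score of 3100 or more, 36 of 660, or 5.45%, were CSE-only, and 3 of the CSE-only intervals scored above this one while 33, itself included, had the same score. Exon 2 holds the start codon, with 41 nt of 5′ UTR and 917 coding nt. A second CSE-only interval, chr3:156411809-156411977, had the 169 nt of the coding exon 3. It scored 61.57, above 8.05% of the list, in a class where 40.9% (38.0 to 43.8) of the intervals were CSE-only.

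No knockdown interval on the plus strand lay within 1416213 nt of either TIPARP interval. The names of the intervals carry a running number that rises along the chromosome, with gaps in both lists. Between the listed knockdown intervals that flank TIPARP on either strand, 12 numbers were not listed. The same count was 1 at each CSE-only interval of AHR and 14 at CYP1B1 exon 2. If these numbers count calls, knockdown calls at TIPARP, AHR or CYP1B1 that were not listed cannot be told apart from none.

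Exon 2 of TIPARP held 1 copy of GGACT, a motif that 61.3% of 2231 exons of similar length contain, and 5 copies of AGACT. They are printed because this exon scored highest among the 6 CSE-only intervals, with positions counted from the first base of the exon and the motif in capitals.
TIPARP exon 2, position 773: aaatttgcatGGACTttctgcaagg
TIPARP exon 2, position 8: caggatttttAGACTctgaggagca
TIPARP exon 2, position 71: aacctgagccAGACTgtgtagtgca
TIPARP exon 2, position 123: atgccaaatgAGACTctctgagaag
TIPARP exon 2, position 151: actccattgaAGACTtgttttaaga
TIPARP exon 2, position 520: gctcacttccAGACTgatcttttgc
The AGACT at position 8 lies in the 5′ UTR and the other copies are coding. Exon 3 held neither motif. The longest TIPARP exon, the last one with 2087 nt and the stop codon, was in neither list.

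CYP1A1, the classic induced monooxygenase of the pathway, had 1 interval in CSE and 0 after knockdown. It lay at chr15:75011883-75013115 on the minus strand and had the 1233 nt of the last exon, which holds the final 283 coding nt, the stop codon and the 3′ UTR. This was the one placed interval that covered a stop codon without a counterpart after knockdown. The score of 419.15 was above 66.5% of the CSE list, in a class where 12.3% (10.5 to 14.4) were CSE-only. Of the 2200 CSE-only intervals, 281 scored higher. The nearest knockdown interval on the minus strand was 234467 nt away, and 11 running numbers were not listed between the flanking knockdown intervals.

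The CYP1A1 exon held 3 copies of GGACT, all in the 3′ UTR. At least 3 copies were found in 14.4% of 1761 exons of similar length, as many as in exon 10 of AHR. They begin 178, 637 and 692 nt downstream of the first base of the stop codon and are shown for comparison with the copies in AHR.
CYP1A1 exon 7, position 462: cccctaccctGGACTtgcctctgca
CYP1A1 exon 7, position 921: gaggggctggGGACTtgtgtctgcg
CYP1A1 exon 7, position 976: ccaggcaccaGGACTagggctggag
Of the placed intervals, these on AHR exon 10 and CYP1A1 exon 7 held the most copies. The other shared ones, on AHR exon 8 and CYP1B1 exon 3, held 0. The other CSE-only ones held 0 or 1 each. Whether the number of copies goes with being listed after knockdown was not tested.

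CYP1B1, a CYP1 monooxygenase that also oxidises polycyclic hydrocarbons, held 2 intervals in CSE and 1 after knockdown. The CSE-only interval, chr2:38301489-38302532 on the minus strand, had the 1044 nt of exon 2, which is coding but for 1 nt before the start codon. It scored 175.41, above 42.9% of the list, in a class where 20.6% (18.3 to 23.1) were CSE-only. Its 1 copy of GGACT, found at least once in 62.7% of exons of similar length, is given beside those above.
CYP1B1 exon 2, position 919: aggcggccggGGACTcgcacggtgg

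The other CYP1B1 interval began in both lists at the 5′ border of exon 3, as the distance of 3035 nt to exon 2 equals intron 2. In CSE, chr2:38296817-38298453, it spanned 1637 nt, 586 of them coding and 1051 from the stop codon on. After knockdown, chr2:38294746-38298453, it reached 2071 nt further downstream, to 3708 of the 3804 nt of the exon, and the added stretch was all 3′ UTR. It scored 339.97 in CSE, above 61.3% of that list, and 98.17 after knockdown, above 20.4% of that list. GGACT did not occur in either stretch, while AGACT occurred 3 times in the first 1637 nt and not in the added part.

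**Figure D3:**
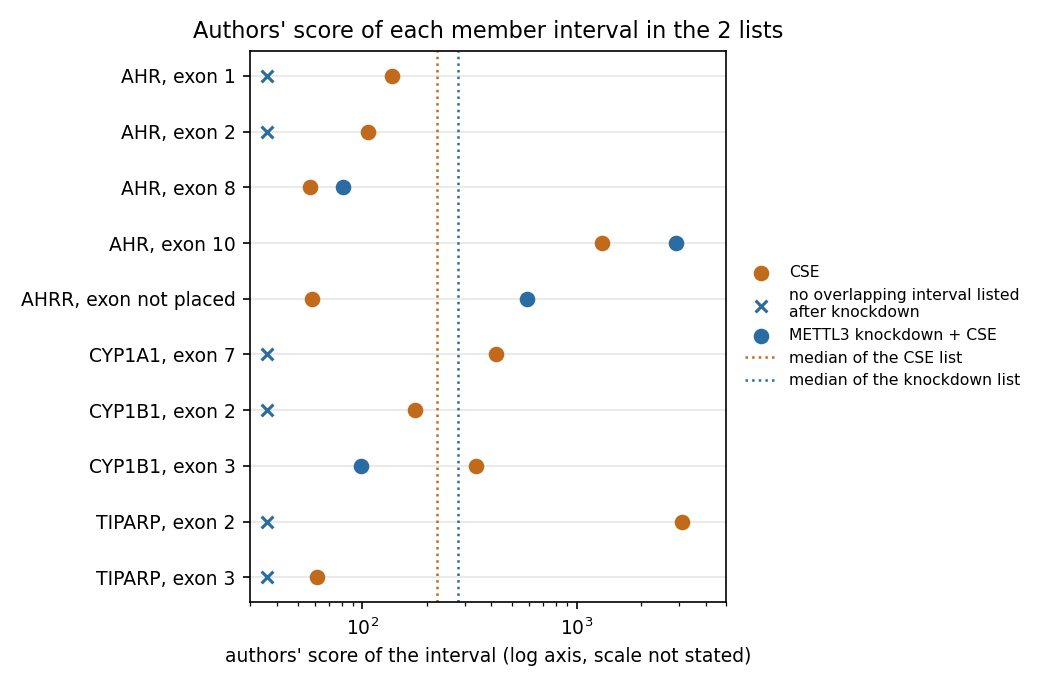
The authors' score of each member interval (log axis, scale not stated), in the CSE list (orange) and the knockdown list (blue); a cross at the left edge marks an interval with no overlapping one listed after knockdown, and dotted lines are the medians of the whole lists, 223.8 and 280.1. The 6 crosses belong to intervals with CSE scores from 61.57 to 3100.0, on both sides of the CSE median. Scores only place an interval within its own list, so a difference between the colours cannot be read as a change between conditions.

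The 6 CSE-only intervals were not the weak end of the list alone. Their scores were 61.57, 106.2, 137.56, 175.41, 419.15 and 3100.0, so that 4 of them lay below the CSE list's median of 223.8. The 4 CSE intervals with a counterpart scored 56.77, 58.31, 339.97 and 1308.0, and the ranges of the 2 sets overlap. Over the whole CSE list the median score was 108.7 for CSE-only and 275.3 for overlapping intervals. In width the CSE-only intervals ran from 169 to 1233 nt and the others from 110 to 4111 nt.

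**Figure D4:**
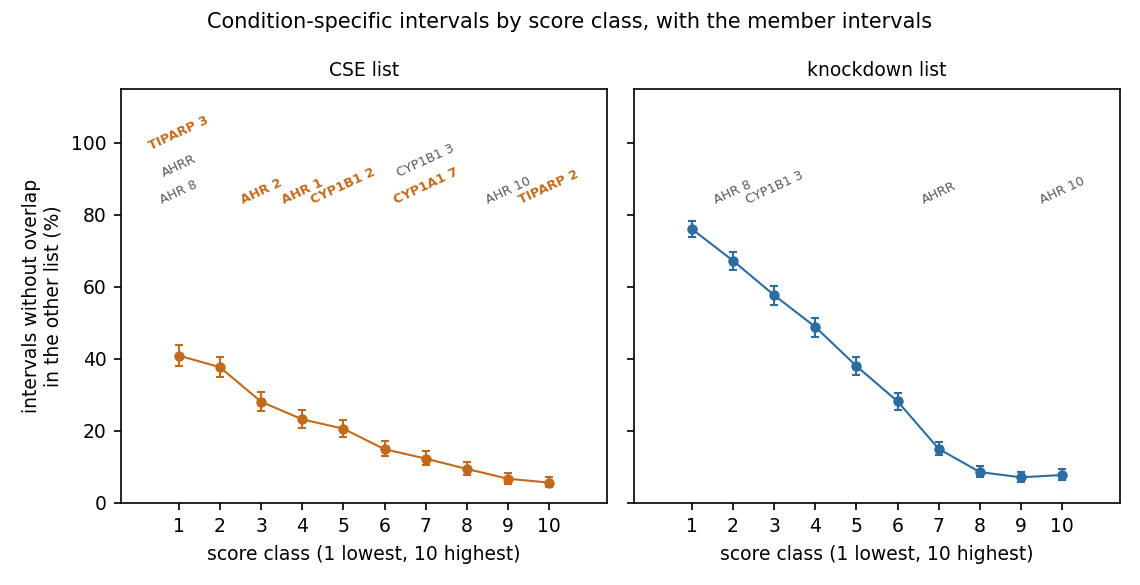
Share of intervals without an overlap in the other list (vertical axis, %, bars are Wilson 95% intervals that cover counting error only) across 10 classes of equal size by score, for the CSE list (left) and the knockdown list (right); names give the class of each member interval with its exon, bold where condition-specific. In the CSE list the share falls from 40.9% to 5.62%, and the bold names run from class 1 to class 10.

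To set the genes beside a background, same-strand intervals of the 2 lists no more than 25 kb apart were chained into neighbourhoods, which gave 7903. All were formed by the same rule and were not matched in extent. Each of the 5 genes fell into 1 neighbourhood, and only that of AHRR held intervals from outside the window, with 2 intervals from each list in all. In 4 of the 5, all but that of AHRR, the CSE list had more intervals than the knockdown list, and in 0 it had fewer. Over all 7903 neighbourhoods the CSE list had more in 18.5% and fewer in 39.5%. Only 6212 of the 7903 held a CSE interval, as each of the 5 does. The rest can only count as fewer and never as more, so neither the 18.5% nor the 39.5% is a like background for the 5 genes. All 1464 neighbourhoods in which the CSE list had more are among the 6212. CYP1A1 and TIPARP were 2 of 957 neighbourhoods with a CSE interval and no knockdown interval, 15.4% of the 6212 with a CSE interval. With at least 2 CSE intervals, as in TIPARP, 70 of 2277, or 3.07%, had none after knockdown. The genes were proposed with results of these lists in view, so these shares describe the background and are no test.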

How the data were processed

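Per the submitters' processing notes, alignment was by HISAT2 2.0.4 against hg19. The authors deposited 1 list of m6A intervals per condition, with a score per interval whose scale is not stated. Per the file contents interval names start with MACS; not given in the sources used here are the caller's version and settings, the use of replicates and the source of the strand, and read depth is unknown. Positions were taken as 0-based starts and are given counting from 1.

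From these files, overlaps (at least 1 bp, same strand), places within each list, neighbourhoods and Wilson intervals were computed with Python 3.11.15 and SciPy 1.17.1; the overlap code was checked on simulated intervals. Each gene was represented by the protein-coding GENCODE transcript with the most exons equal in length to an interval, then the lowest transcript number. Motifs were counted in the transcript sequences, on the transcript strand, and in 204044 exons of the longest basic transcript of 19652 protein-coding genes. All 5 members and each of their intervals are named. Members, lists and alternatives were chosen with earlier results of these data known. Further genes of the pathway were not analysed here, because the annotation used here is of another build. Alternatives changed the overlap, a minimum score, the windows and the strand.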

Additional observations from a re-analysis of the deposited data

How the results depend on the processing

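Of 26 values for the members as a whole under other settings, 14 stayed within 1.5 times the reported count or length and 12 did not. With windows widened by 10 kb, or with either strand counted, no number of intervals differed from those reported. With 50% reciprocal overlap, 7 CSE intervals and 1 knockdown interval were condition-specific, CYP1B1 exon 3 joining in both lists, beside 20.8% of all CSE and 36.2% of all knockdown intervals. With identical borders the numbers were 8 and 2, AHRR joining too, beside 34.2% and 47.0% of all. A minimum score of 100 left 7 CSE intervals covering 6981 nt and 2 knockdown intervals covering 5253 nt. Of these, 6 were CSE-only and 1 knockdown-only, beside 19.1% and 37.6% of all intervals that reach this score. The 6 are not those of the report: 5 of them are, TIPARP exon 3 fell out, and CYP1B1 exon 3 came in because its knockdown counterpart scored below the minimum. The knockdown-only interval, AHRR, likewise had a CSE counterpart below the minimum. Keeping the higher-scoring 50% of either list left 4 CSE intervals covering 5071 nt, 3 of them CSE-only, and 2 knockdown intervals covering 5253 nt, 1 of them, AHRR, knockdown-only, beside 20.1% and 35.6% of all intervals kept. Only 2 of these 3, CYP1A1 exon 7 and TIPARP exon 2, are among the 6 CSE-only intervals of the report. The third is CYP1B1 exon 3, which the report gives as shared, and neither CSE-only interval of AHR was kept. CYP1A1 exon 7 and TIPARP exon 2 were CSE-only under each setting of overlap, score and window run, which for most settings was fixed in advance. Stricter overlap and score minimums can only remove counterparts, and wider windows leave the overlap rule unchanged. Only overlap on either strand could have given these intervals a counterpart, and it gave none. Score minimums remove intervals by construction, and a fixed minimum need not be equally strict in both lists. No paired analysis was possible because the result comes from no test and each condition has 1 list.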

Other observations

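The motif AGACT was frequent in 1 exon, which was singled out after the counts were seen. TIPARP exon 2 held 5 copies, a density of 5.22 per kb, and 0.672% of the 2231 exons of similar length held as many or more. AGACT was 1 of 3 letter strings counted, beside GGACT and GGAC. By contrast the 3708 nt of CYP1B1 exon 3 listed after knockdown held no GGACT, although 93.6% of 1181 exons of similar length hold at least 1. Its GC content was 35.7%, against 68.1% in exon 2 of the same gene and 73.3% in the AHR exon 1 interval. Over all placed CSE intervals there were 9 copies of GGACT, 5 coding, 3 in a 3′ UTR and 1 in a 5′ UTR. Of these, 3 lay in an exon listed in both conditions with identical borders.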
